A study of Homo sapiens with 9 samples.

Results

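MALAT1 and NEAT1 are long noncoding RNAs that stay in the nucleus and are transcribed from neighbouring genes. They were taken from the table of raw counts by gene name, and they are 2 of its 57820 genes and 2 of its 7114 lincRNA genes, the annotation's class for long noncoding RNAs that lie between protein-coding genes. The values came from 9 Chrom-seq libraries of HEK293T cells, an established human embryonic kidney line, in 3 groups of 3 replicates. Chrom-seq labels RNA near a chosen chromatin mark in living cells: an engineered peroxidase, APEX2, is brought to a reader protein and attaches biotin-aniline to nearby RNA, which is then captured on streptavidin and sequenced.

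All 3 groups expressed APEX2 fused to a single-chain antibody that binds SunTag epitopes, and the sample descriptions of all 3 carry the tag NLS, which the labels do not spell out. The CBX1 libraries came from cells whose epitopes carried a chromodomain taken from CBX1, which is known to bind trimethylated lysine 9 of histone H3 (H3K9me3), a mark of heterochromatin. For CBX1_W42A this domain had the amino acid change W42A, and for Control no reader was attached to the epitopes. Every group was labelled 48 hours after the constructs were introduced, by adding biotin-aniline at 500 μM for 30 min and then hydrogen peroxide at 1 mM for 1 min. The readers were extra copies expressed from constructs beside the CBX1 that the cells make themselves, and no total RNA of these cells was analysed here, so more labelling of an RNA and more of that RNA in the cells cannot be told apart. The study calls its CBX1 replicates independent, but no label says whether replicates came from separate cultures, and p-values measure the spread between these libraries. The labels give no batch or date for any library. The CBX1_W42A libraries were registered apart from the other 6, under later entries, so a difference in batch cannot be told apart from the group in any comparison with CBX1_W42A.

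MALAT1 lies in nuclear speckles, the bodies that store splicing factors, and is among the most abundant nuclear RNAs of human cells. NEAT1 is the scaffold of paraspeckles, bodies that form beside speckles around its long transcript, and a short transcript from the same start is polyadenylated and cannot build a paraspeckle alone. The mature 3′ ends of MALAT1 and of long NEAT1 have no poly(A) tail: RNase P cuts upstream of a tRNA-like structure, and a triple helix of U-rich stretches with a genome-encoded A-rich tract protects the end. The question put to the pair here was whether their capture differed between the reader, the mutated reader and the reader-free control, and whether both moved alike.

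On hg19, the build of the counts, MALAT1 (ENSG00000251562.3) spans chr11:65265233-65273940 on the plus strand, 8708 bases, and NEAT1 (ENSG00000245532.4) spans chr11:65190245-65213011 on the plus strand, 22767 bases. The end of NEAT1 and the start of MALAT1 are 52.2 kb apart. The libraries were made from poly(A)-selected RNA, so the 3′ ends are shown first. The first pair of sequences holds the triple helix parts, with capitals for the stretches of at least 8 bases that both genes share in the same order, TTTCTTTT, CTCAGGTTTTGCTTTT and AAAAAGCAAAA.
MALAT1, chr11:65273494-65273596, plus strand: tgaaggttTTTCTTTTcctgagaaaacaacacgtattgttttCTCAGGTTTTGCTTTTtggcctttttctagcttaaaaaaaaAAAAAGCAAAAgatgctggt
NEAT1, chr11:65212916-65213011, plus strand: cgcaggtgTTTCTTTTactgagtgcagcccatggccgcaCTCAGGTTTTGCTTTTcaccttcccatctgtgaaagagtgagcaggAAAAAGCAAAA
The shared stretches are a pair of U-rich stretches (written here with T) and the A-rich tract. In the 1273093 windows of 103 bases tiled over chromosome 11, 4.03% held TTTCTTTT and 0.0823% held AAAAAGCAAAA on either strand, while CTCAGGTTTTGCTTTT was in 2 windows. All 3 in this order within 103 bases of 1 strand were found at 2 places of chromosome 11, 1 in MALAT1 and 1 in NEAT1. The stretches were read from these genes themselves, so the match describes them and is no test. The last 10 bases of the middle stretch are the reverse complement of the last 10 of the A-rich tract, so these motifs overlap in part on opposite strands.

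The second pair shows where a poly(A) tail can be added, with capitals for AATAAA, the usual polyadenylation signal.
NEAT1 beyond the short transcript, chr11:65193934-65193999, plus strand: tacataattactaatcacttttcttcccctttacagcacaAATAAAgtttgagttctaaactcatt
MALAT1 annotated end, chr11:65273878-65273943, plus strand: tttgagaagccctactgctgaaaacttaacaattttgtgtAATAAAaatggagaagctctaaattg
The signal in NEAT1 starts 46 bases after the annotated end of the short transcript used here, 65193928, so the stretch shown lies outside that transcript as annotated. On either strand, 11.8% of 66-base windows of chromosome 11 held AATAAA, so the hexamer is common. The A run of MALAT1, at 65273569 to 65273581, lies 359 bases before its annotated end and is the only run of at least 10 A in its span. NEAT1 had 5 such runs, the longest of 22 bases at 65208314 to 65208335, all outside the short transcript. Guanosine, the base that biotin-aniline is known to label, made up 23.9% of the MALAT1 span and 23.6% of the NEAT1 span, and 30.4% of the 3684 bases annotated as the short NEAT1 transcript. The counts are 1 number per gene, so they do not say which transcript or which part of the span the reads came from.

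MALAT1 was counted 18102, 14065 and 13602 times in Control replicates 1, 2 and 3. It was counted 29914, 36837 and 31151 times in the CBX1 replicates and 30054, 25769 and 23717 times in the CBX1_W42A replicates. Every library with a reader was above every Control library, although library totals differed by less than the MALAT1 counts did, between 8379542 and 11082852 counts.

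NEAT1 was counted 4465, 2700 and 3989 times in Control, 7075, 5969 and 9814 times with CBX1, and 7217, 4427 and 6979 times with CBX1_W42A. The CBX1 libraries were all above the Control libraries, while CBX1_W42A replicate 2 lay below Control replicate 1. The 1 gene that overlaps either span, the lincRNA AP000769.7 on the opposite strand within MALAT1, had 2 counts in CBX1 replicate 3, 1 in CBX1_W42A replicate 3 and 0 in the other libraries.

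As a share of all counts, MALAT1 made up 0.167% (95% Wilson interval 0.165 to 0.169%), 0.150% (0.147 to 0.152%) and 0.162% (0.160 to 0.165%) in Control. With CBX1 it made up 0.344% (0.340 to 0.348%), 0.423% (0.419 to 0.428%) and 0.312% (0.309 to 0.316%). With CBX1_W42A it made up 0.271% (0.268 to 0.274%), 0.277% (0.274 to 0.280%) and 0.254% (0.251 to 0.257%). The 3 groups did not overlap, in the order Control, CBX1_W42A, CBX1, and CBX1 replicate 2 stood above the other CBX1 libraries by far more than counting error. The intervals cover counting error only, since reads copied by PCR are not independent molecules.

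NEAT1 made up 0.0412% (0.0400 to 0.0424%), 0.0288% (0.0277 to 0.0299%) and 0.0476% (0.0462 to 0.0491%) in Control. With CBX1 the shares were 0.0813% (0.0794 to 0.0832%), 0.0686% (0.0669 to 0.0703%) and 0.0984% (0.0965 to 0.1004%). With CBX1_W42A they were 0.0651% (0.0636 to 0.0666%), 0.0476% (0.0462 to 0.0490%) and 0.0747% (0.0729 to 0.0764%). The order of the means was again Control, CBX1_W42A, CBX1, but CBX1_W42A replicate 2 was level with Control replicate 3, and CBX1_W42A replicate 3 was above CBX1 replicate 2.

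Counts per 1000000 counts (CPM), scaled by trimmed mean of M values (TMM) factors, kept this order. MALAT1 was at 1662 ± 88.6 CPM in Control, 2640 ± 124 with CBX1_W42A and 3502 ± 566 with CBX1 (SD, n = 3). NEAT1 was at 407 ± 95.8, 618 ± 139 and 805 ± 143 CPM in the same groups (SD, n = 3). Per kilobase of the full span, MALAT1 was at 180 to 201 CPM in Control and NEAT1 at 13.3 to 21.5 CPM, and MALAT1 was by this measure the higher of the pair in every library. By count, MALAT1 ranked 24 to 29 among all genes in Control, 12 to 14 with CBX1_W42A and 7 to 10 with CBX1. NEAT1 ranked 231 to 552, 110 to 225 and 62 to 127 in those groups, and at place 3 among lincRNAs in all 9 libraries.

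**Figure D1:**
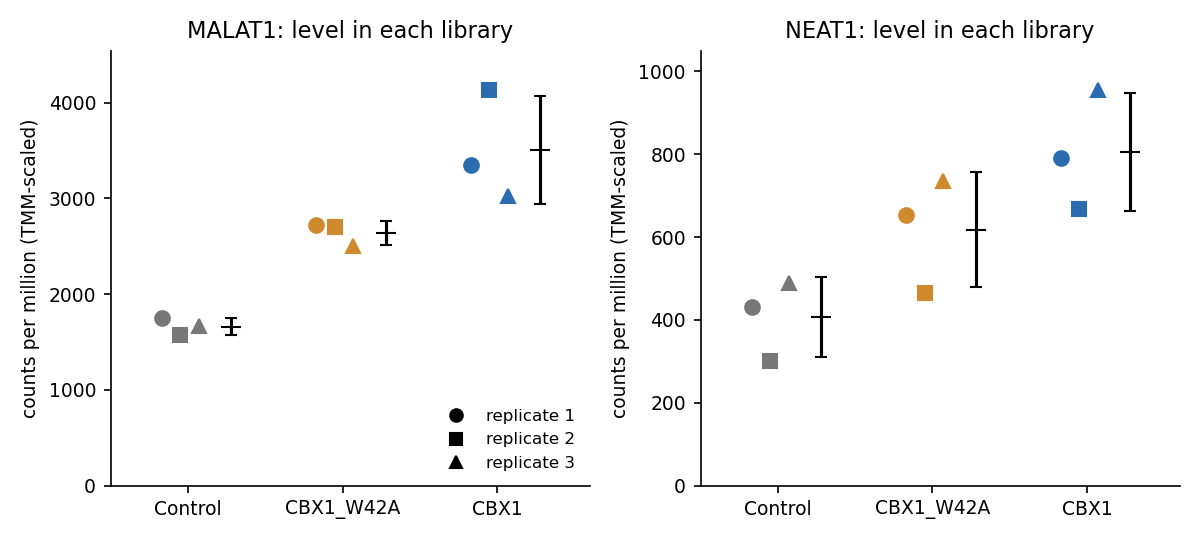
Level of MALAT1 (left) and NEAT1 (right) in each library, in CPM scaled by TMM factors, by group on the x axis. Points are libraries, with a symbol for each replicate number, and the bar beside them is the mean with its SD (n = 3). The MALAT1 groups do not overlap, with means of 1662, 2640 and 3502, whereas the NEAT1 libraries of CBX1_W42A overlap both other groups.

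The CBX1 reader was compared with the reader-free control to ask which RNAs were captured more with a domain that binds H3K9me3. Both RNAs rose. MALAT1 was 2.12-fold higher with CBX1, a log2 fold change of 1.08 ± 0.10 (SE; 95% interval 0.86 to 1.31; adjusted p = 9.31e-06, Benjamini-Hochberg over 18837 genes in a quasi-likelihood fit by edgeR). NEAT1 was 1.99-fold higher, with a log2 fold change of 1.00 ± 0.15 (SE; 95% interval 0.68 to 1.31; adjusted p = 0.000342 in the same edgeR fit). All 9 pairs of a CBX1 with a Control library pointed upward for each of them.

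To be called enriched, an RNA needed a log2 fold change of 0.75 or more together with an adjusted p under 0.05. By this rule 2 of 2 members were enriched with CBX1, where 7.06% of all genes tested were called higher and 0.34% lower. In CPM, 18.9% of genes tested had all CBX1 libraries above all Control libraries. By fold change the members stood high but not at the extreme: 9.69% of genes had a larger log2 fold change than MALAT1 and 10.9% a larger one than NEAT1. By adjusted p in edgeR, MALAT1 ranked 16 and NEAT1 181 of 18837 genes. These ranks were 9 and 410 of 18680 for CBX1_W42A against Control, and 668 and 1861 of 19360 between the readers.

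The mutated reader was compared with the control to ask how much of this remains when the chromodomain carries W42A. MALAT1 rose 1.59-fold with CBX1_W42A, a log2 fold change of 0.67 ± 0.10 (SE; 95% interval 0.47 to 0.87; adjusted p = 0.00187, edgeR over 18680 genes). It passed the p threshold, with 9 of 9 pairs of libraries upward (11.8% of genes tested had groups that did not overlap in this direction), and missed the fold change of 0.75, so it was not called enriched. NEAT1 rose 1.52-fold, a log2 fold change of 0.60 ± 0.16 (SE; 95% interval 0.27 to 0.93; adjusted p = 0.0469 in the same edgeR fit), with 8 of 9 pairs upward and the groups overlapping.

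The number of members called enriched with CBX1_W42A was therefore 0 of 2 by edgeR and by DESeq2, where 0.974% of all genes tested were called higher and 0.0214% lower, and 2 of 2 passed the p threshold with any fold change, where 1.37% of genes did so in this direction. Scaled by upper-quartile factors, MALAT1 reached a log2 fold change of 0.76 (adjusted p = 0.000543, edgeR) and was called. NEAT1 no longer passed the p threshold under DESeq2 (log2 fold change 0.61, adjusted p = 0.189). It did not pass either without Control replicate 1 (log2 fold change 0.66, adjusted p = 0.0953), Control replicate 2 (0.44, adjusted p = 0.133), CBX1_W42A replicate 1 (0.56, adjusted p = 0.114) or CBX1_W42A replicate 3 (0.46, adjusted p = 0.202), all by edgeR. Without Control replicate 3 (0.75, adjusted p = 0.0445) or CBX1_W42A replicate 2 (0.77, adjusted p = 0.0384, edgeR) it passed the fold change as well and was called enriched.

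The direct comparison of the intact with the mutated reader gave smaller differences. MALAT1 was 1.31-fold the level of CBX1_W42A with CBX1, a log2 fold change of 0.39 ± 0.11 (SE; 95% interval 0.15 to 0.63), with 9 of 9 pairs of libraries upward and an adjusted p of 0.075 (edgeR over 19360 genes). NEAT1 was at 1.29-fold, a log2 fold change of 0.36 ± 0.14 (SE; 95% interval 0.07 to 0.66), with 8 of 9 pairs upward and an adjusted p of 0.191 in the same edgeR fit. Both unadjusted p-values were below 0.05. With 0 of 2 members past the threshold after adjustment, beside 1.32% of genes that passed in this direction, 0.795% called higher, 0.201% called lower and 11.1% with groups that did not overlap upward, the intervals still include differences of up to 0.63 and 0.66. The MALAT1 result sat near the threshold and passed in 5 of 10 other settings, DESeq2 among them (adjusted p = 0.0253), but in 0 of 6 fits without 1 library, where the log2 fold change was between 0.26 (without CBX1 replicate 2) and 0.48. NEAT1 passed in 2 of 10 other settings and in 0 of 6 such fits, where it was between 0.21 (without CBX1_W42A replicate 2; 0.22 without CBX1 replicate 3) and 0.51. Among the 10 settings, the minimum log2 fold change of 1 reuses the main fit, so its adjusted p could not differ.

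**Figure D2:**
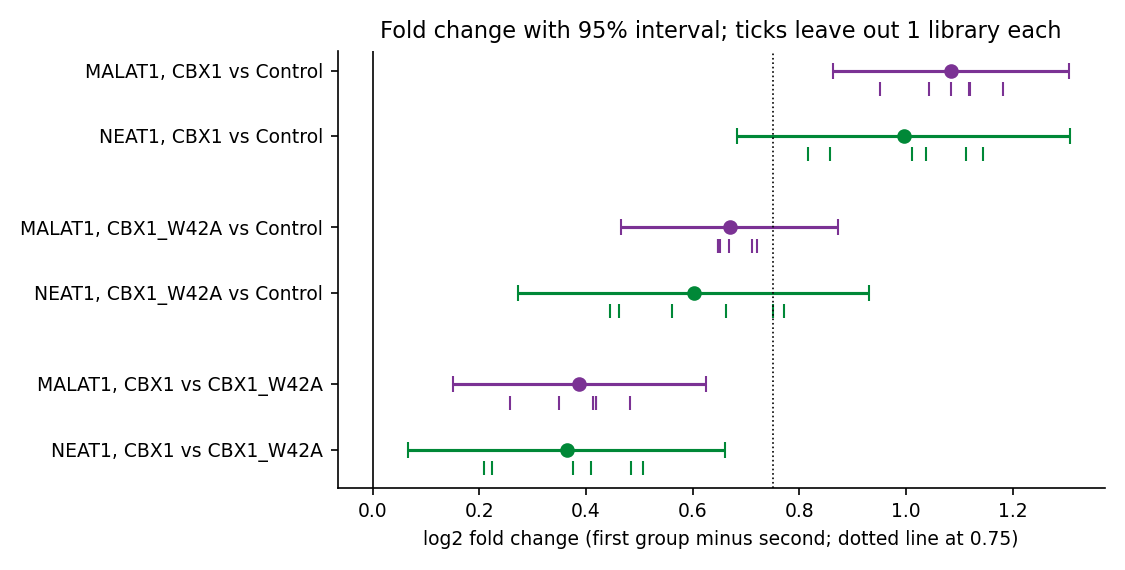
Log2 fold change of MALAT1 (purple) and NEAT1 (green) in each comparison on the x axis, with the first group named minus the second. Points with bars are edgeR estimates with 95% intervals, short ticks are the same estimate with 1 library left out, and the dotted line is the minimum of 0.75 for a call. In each comparison the estimates of the pair lie close together, at 1.08 and 1.00, 0.67 and 0.60, and 0.39 and 0.36, and all intervals lie above 0.

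The comparisons with Control share the 3 Control libraries, and the values for CBX1 and CBX1_W42A are therefore given side by side. Exact permutation tests of the shares, 3 libraries against 3, cannot give a two-sided p below 0.1. They gave an exact p = 0.1 for MALAT1 in all 3 comparisons, for mean differences of 0.200, 0.108 and 0.0925 percentage points. For NEAT1 the exact p was 0.1 for CBX1 against Control (0.0436 percentage points), 0.2 for CBX1_W42A against Control (0.0233) and again 0.2 between the readers (0.0203). The difference between the readers fell to 0.0608 points for MALAT1 without CBX1 replicate 2, and for NEAT1 to 0.0125 without CBX1 replicate 3 and 0.0129 without CBX1_W42A replicate 2. Adjusted over the 9 share and ratio tests, these permutation p-values were 0.225 or 0.3.

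The ratio of the pair within a library does not depend on how libraries are scaled. It was 4.05, 5.21 and 3.41 MALAT1 counts per NEAT1 count in Control replicates 1, 2 and 3. It was 4.23, 6.17 and 3.17 with CBX1 and 4.16, 5.82 and 3.398 with CBX1_W42A. Per kilobase of span the ratio was between 8.30 and 16.1. This value depends on the length used: the NEAT1 span has 22767 bases and its short transcript 3684, and the counts do not separate them. The groups overlapped almost wholly, and the spread within a group was far wider than the distance between group means.

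On the log2 scale, the mean ratio was 2.06 ± 0.31 in Control, 2.12 ± 0.48 with CBX1 and 2.12 ± 0.39 with CBX1_W42A (SD, n = 3). The differences were 0.067 for CBX1 against Control (exact permutation p = 0.9, two-sided), 0.065 with CBX1_W42A against Control (p = 0.8, exact permutation) and 0.0026 between the readers (p = 1, exact permutation). Leaving out 1 library changed the sign of each of them, with ranges from -0.18 to 0.30, from -0.15 to 0.24 and from -0.25 to 0.23. CBX1 replicate 2 did so in both comparisons it entered (-0.18 and -0.25). Control replicate 3 did so in both of its comparisons (-0.076 and -0.079), CBX1_W42A replicate 2 against Control (-0.15), and CBX1_W42A replicates 1 (-0.029) and 3 (-0.18) against CBX1. With libraries not paired by replicate number, a change in the ratio smaller than this spread was not detectable with 3 libraries a group.

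The ratio followed the replicate number in all 3 groups: replicate 2 had the highest and replicate 3 the lowest. NEAT1 CPM was lowest in replicate 2 and highest in replicate 3 of each group, at 302 and 489 in Control, 669 and 954 with CBX1, and 465 and 735 with CBX1_W42A. The labels do not say that a number marks a shared culture or day, and this order was seen in the values and not tested.

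**Figure D3:**
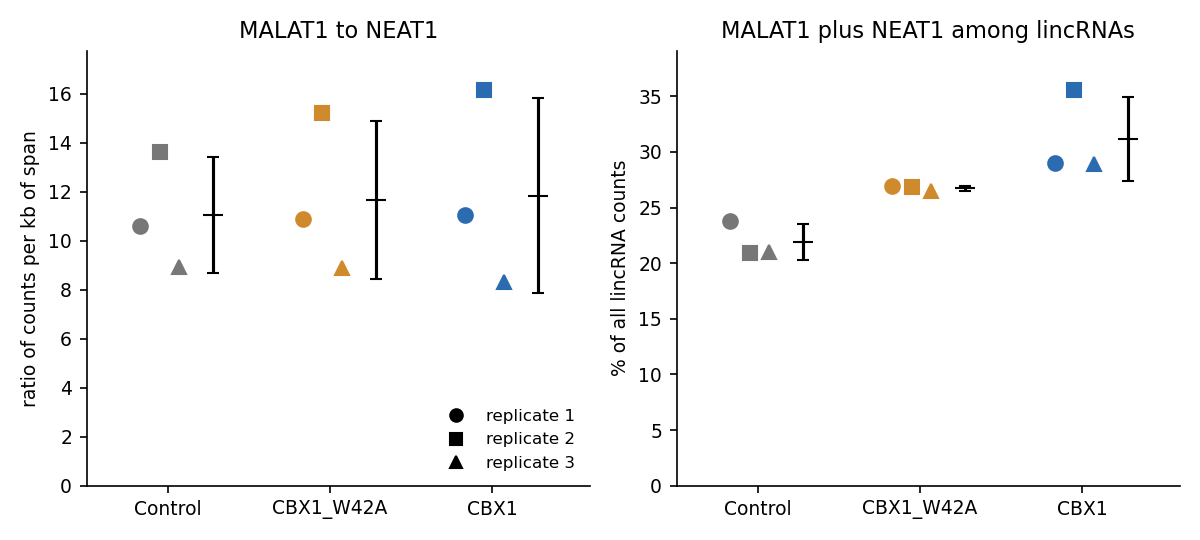
Left, ratio of MALAT1 to NEAT1 counts per kilobase of span in each library, and right, percent of all lincRNA counts taken by both together, by group on the x axis. Points are libraries with a symbol for each replicate number, and bars are means with SD (n = 3). The ratios overlap between 8.30 and 16.1 in all groups, whereas the joint share of lincRNA counts rises from 20.9 to 23.8% in Control to 28.9 to 35.5% with CBX1.

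NEAT1 varied more between replicates than most genes with a mean count of 1000 or more, and MALAT1 did so only with CBX1. The coefficient of variation of CPM was 23.5% for NEAT1 in Control, 17.8% with CBX1 and 22.4% with CBX1_W42A, against 1.15 to 1.64% from counting alone. It was larger than that of 97.6%, 96.2% and 97.4% of these 2238 genes, whose medians were 6.87%, 6.49% and 8.34%. MALAT1 varied by 5.34% in Control, 16.2% with CBX1 and 4.69% with CBX1_W42A, more than 34.7%, 94.6% and 18.9% of those genes. The CBX1 libraries of MALAT1 were at 4128 CPM in replicate 2 and at 3347 and 3029 in replicates 1 and 3.

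Both RNAs are large parts of the lincRNA counts. Together they made up 20.9 to 23.8% of all lincRNA counts in Control, 26.5 to 26.9% with CBX1_W42A and 28.9 to 35.5% with CBX1. LincRNAs as a class made up 0.854 to 1.00% of all counts in Control, 1.21 to 1.25% with CBX1_W42A and 1.38 to 1.46% with CBX1. MALAT1 and NEAT1 accounted for 0.244 of the 0.513 percentage points by which the class mean with CBX1 exceeded Control, which is 47.5%, and for 0.131 of 0.323 points with CBX1_W42A, or 40.5%. Without the pair, the lincRNA share was still higher with the readers, at 0.666 to 0.792% in Control, 0.885 to 0.914% with CBX1_W42A and 0.892 to 1.04% with CBX1, and the reader groups then overlapped.

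Among lincRNAs, the fold changes of the pair were above the middle and not extreme. The median log2 fold change of the 1289 lincRNAs tested was 0.59 for CBX1 against Control, beside 0.03 for all genes, and MALAT1 ranked 373 and NEAT1 409. For CBX1_W42A against Control the lincRNA median was 0.37 beside 0.01, with ranks of 404 and 456 among 1250. For CBX1 against CBX1_W42A it was 0.18 beside 0.00, with ranks of 494 and 523 among 1427. Of the lincRNAs tested, 208 (16.1%) were called higher with CBX1 and 20 (1.6%) with CBX1_W42A, each against Control.

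**Figure D4:**
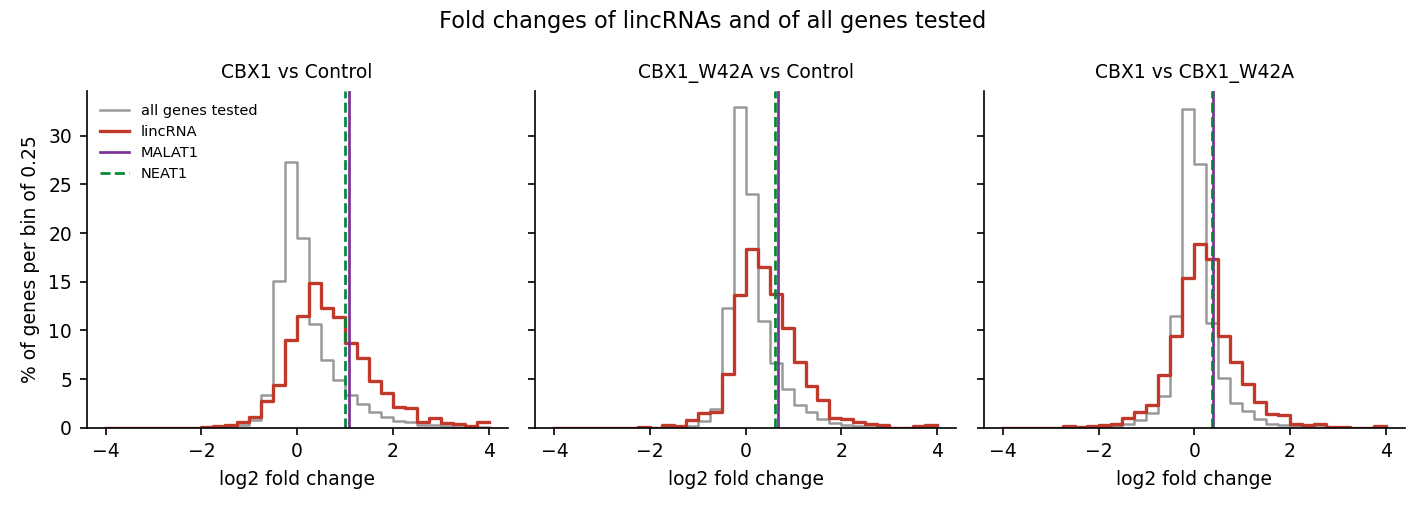
Distribution of log2 fold changes in each comparison, as percent of genes per bin of 0.25, for lincRNAs (red) and all genes tested (grey), with MALAT1 (purple line) and NEAT1 (green dashed line). Values beyond 4 are put in the outermost bins. In each panel both lines lie right of the lincRNA median of 0.59, 0.37 and 0.18, inside the bulk of lincRNAs.

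Other measures of the libraries moved with the groups as well. Mitochondrial transcripts, which lie outside the nucleus, took 3.16 to 3.50% of counts in Control, 4.21 to 4.39% with CBX1_W42A and 4.36 to 4.70% with CBX1. Of 13 mitochondrially encoded mRNAs, 8 rose with CBX1 by adjusted p (edgeR), beside 10.6% of all genes, from 0.29 for MT-ATP8 to 0.53 for MT-ND6 on the log2 scale. At 0.75, 0 were called, beside 7.06% of all genes called higher. With CBX1_W42A 1 of 13 rose, MT-ND1 by 0.48 (adjusted p = 0.0207, edgeR), beside 1.37% of all genes. DESeq2 gave 4 by adjusted p, and 7 had an unadjusted p below 0.05 in edgeR. Between the readers 0 of 13 passed with edgeR or DESeq2, and 1 had an unadjusted p below 0.05. Shares of all genes past a p threshold are given here for edgeR after adjustment only. Counts by unadjusted p, or by adjusted p in DESeq2, therefore have no such share to be read against, in this and the other lists. With the fold change of 0.75 as well, DESeq2 called 1060 of 18837 genes higher and 52 lower for CBX1 against Control. It called 189 of 18680 higher and 4 lower for CBX1_W42A against Control, and 138 of 19360 higher and 38 lower between the readers. Taken as shares of the counts outside the mitochondrial genome, the CBX1 and Control means differed by 0.212 percentage points for MALAT1, beside 0.200 of all counts, and by 0.0461 for NEAT1, beside 0.0436. With CBX1_W42A the differences from Control were 0.114 points for MALAT1, beside 0.108, and 0.0247 for NEAT1, beside 0.0233. The cell type label was checked against 7 markers of HEK293T, all above the filter on low counts, from PAX2 at 6.94, 9.69 and 7.65 CPM to VIM at 564, 462 and 530 CPM in Control, CBX1 and CBX1_W42A. LHX1 rose with CBX1_W42A by 0.70 on the log2 scale (10.9 to 17.8 CPM, adjusted p = 0.038, edgeR), and no other marker passed in any comparison. Of 9 markers of other cell types, CD3E, SFTPC and HBB were at 0 in every library, and the 9 summed to 37.9, 43.5 and 41.6 CPM in the same groups, mostly from the collagen gene COL1A1.

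Other lncRNAs known to be mostly nuclear did not all behave as MALAT1 and NEAT1 did. Of 10 listed, 7 were tested: 3 rose with CBX1 against Control by adjusted p, beside 10.6% of all genes, 2 of them were called enriched, beside 7.06% of all genes, 4 did not pass, and the median log2 fold change was 0.33. KCNQ1OT1, an antisense RNA of the imprinted KCNQ1 locus, was at 17.1, 16.5 and 23.5 CPM in Control, 45.2, 37.4 and 44.5 with CBX1 and 40.6, 40.3 and 37.9 with CBX1_W42A. It was called enriched with both readers, by 1.17 ± 0.14 (adjusted p = 5.45e-05) and 1.06 ± 0.14 (adjusted p = 0.00175, SE, edgeR) on the log2 scale. FTX, a lincRNA of the X inactivation centre, was called as well, at 1.16 ± 0.17 (adjusted p = 0.000298) and 0.80 ± 0.17 (adjusted p = 0.0235, SE, edgeR). With CBX1_W42A against Control, 2 of the 7 were thus called enriched, beside 0.974% of all genes. By adjusted p 3 of the 7 rose there, beside 1.37% of all genes, and the median log2 fold change was 0.54.

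DLEU2 rose by 0.69 with CBX1 (adjusted p = 0.000559) and 0.54 with CBX1_W42A (adjusted p = 0.0313, edgeR), under the fold change for a call. TUG1, at 130 to 138 CPM in the group means, had log2 fold changes of -0.05 and 0.03, and JPX, at 116 to 123 CPM, of -0.04 and -0.08. PVT1 had 0.33 and 0.34 and did not pass, nor did MIAT (-0.20 and 0.83), which was low at 0.57 to 1.17 CPM. Between the readers, 0 of 7 passed with edgeR or DESeq2, and 1 had an unadjusted p below 0.05. MEG3 and RMST were under the filter, and the symbol LINC-PINT had no match in the table.

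Of 10 mostly cytoplasmic lncRNAs and snoRNA host genes, 0 were called by edgeR or DESeq2 in any comparison, and the median log2 fold change with CBX1 was 0.05. Of all genes, edgeR called 7.06% higher with CBX1 and 0.974% with CBX1_W42A against Control, and 0.795% between the readers. With shares this small, 0 of 10 called does not set these RNAs apart from other genes. SNHG8 fell by 0.56 on the log2 scale with CBX1 against Control (adjusted p = 0.0153, edgeR), beside 9.46% of all genes that fell. Against CBX1_W42A it fell by 0.63 (adjusted p = 0.042, edgeR), beside 0.925% of all genes. ZFAS1 had the highest value with CBX1, 0.52, which did not pass (adjusted p = 0.0943, edgeR), and at an unadjusted p below 0.05 there were 1 higher and 2 lower in that comparison.

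None of the mRNAs for proteins of paraspeckles, of nuclear speckles or of 3′ end formation was called by edgeR or DESeq2 in any comparison. Of all genes, 7.06% were called higher and 0.34% lower with CBX1 against Control by edgeR. Of 14 genes of paraspeckle proteins, 13 were tested, with a median log2 fold change of -0.12 for CBX1 against Control. NONO and SFPQ, the paired proteins that coat NEAT1, had log2 fold changes of -0.09 and -0.15 and did not pass. HNRNPH3 (-0.26, adjusted p = 0.0485), NUDT21 (-0.35, adjusted p = 0.012) and SMARCA4 (-0.44, adjusted p = 0.00874, edgeR) fell with CBX1, beside 9.46% of all genes that fell by adjusted p. In the other comparisons 0 of 13 passed with either tool, with 2 lower for CBX1_W42A against Control and 1 lower between the readers at an unadjusted p below 0.05, and RBM14 was listed at 0 in every library.

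Of 14 genes of nuclear speckle proteins, 2 were lower with CBX1 against Control at an unadjusted p below 0.05. By adjusted p 1 of the 14 fell, beside 9.46% of all genes. This was PNN, a splicing-associated protein of speckles, which fell by 0.29 on the log2 scale (adjusted p = 0.0237, edgeR). SON and SRRM2, the scaffold proteins of speckles, had log2 fold changes of 0.11 and -0.10 in that comparison and did not pass. Of 12 genes for cutting or protecting the 3′ ends, 10 were tested, and with CBX1 1 was higher and 2 lower at an unadjusted p below 0.05 and 0 by adjusted p. ELAC2, the enzyme that trims the tRNA-like piece, was at -0.23 and METTL16, which binds the MALAT1 triple helix, at -0.04 with CBX1, and neither passed. RPP30, a subunit of RNase P, rose by 0.47 with CBX1 against CBX1_W42A (adjusted p = 0.0391, edgeR), beside 1.32% of all genes that rose. RPP21 was listed at 0, and the symbol RPP14 stood for 2 genes in the table and was left out.

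Few genes around the pair were called. Of 77 other genes that start within 500 kb of either start, 49 were tested for CBX1 against Control, with a median log2 fold change of -0.11, and 2 were called higher and 0 lower, a share of 4.08% beside 7.06% of all genes. These were NAALADL1, a peptidase gene 439.2 kb before the MALAT1 start, at 1.97 ± 0.42 (adjusted p = 0.00388), and the transporter pseudogene SLC22A20, 283.9 kb before it, at 1.35 ± 0.36 (adjusted p = 0.0146, SE, edgeR). Both were low, at 0.894 and 1.43 CPM in Control and 3.43 and 3.68 with CBX1. By adjusted p with any fold change, 4 of the 49 rose and 6 fell, beside 10.6% and 9.46% of all genes.

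The nearest protein-coding genes upstream of and between the pair did not pass in any comparison. FRMD8, upstream of NEAT1, had a log2 fold change of 0.19 ± 0.17 with CBX1 against Control, and AP000769.1, between the pair, of 0.46 ± 0.39 (SE) at 1.40 CPM in Control. With CBX1_W42A these were 0.18 ± 0.17 and 0.71 ± 0.40 (SE), the latter above MALAT1 and NEAT1 in that comparison. With CBX1_W42A against Control, 0 of 51 were called by edgeR or DESeq2, beside 0.974% of all genes called higher by edgeR. At an unadjusted p below 0.05, 4 were higher and 3 lower. POLA2, a DNA polymerase alpha subunit, fell by 0.52 on the log2 scale (adjusted p = 0.019, edgeR), beside 1.25% of all genes that fell. Between the readers, 0 of 50 were called by either tool, beside 0.795% of all genes called higher by edgeR. At an unadjusted p below 0.05, 4 were higher and 6 lower. SAC3D1 fell by 0.57 on the log2 scale (adjusted p = 0.0498, edgeR), beside 0.925% of all genes that fell.

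**Figure D5:**
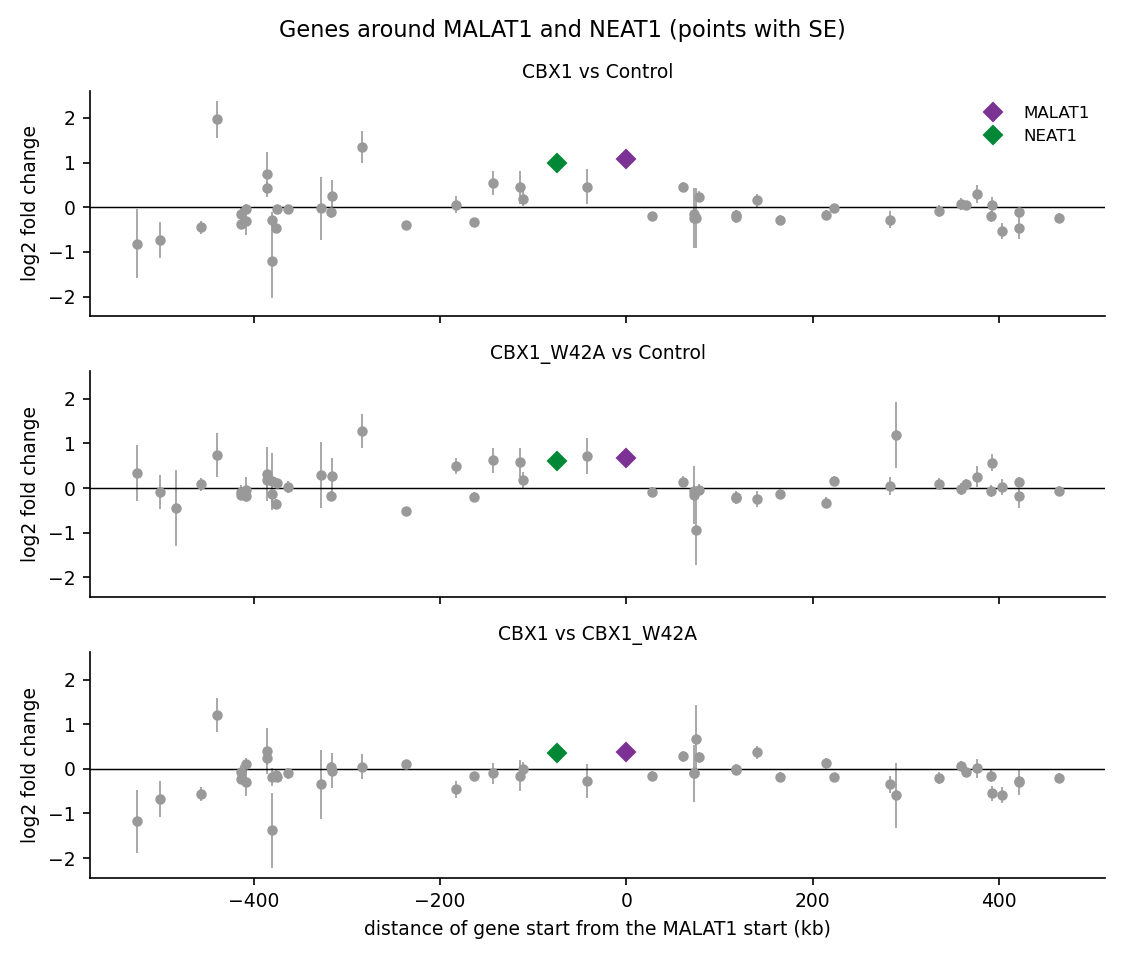
Log2 fold change, with its SE, of each tested gene within 500 kb of MALAT1 or NEAT1 against the distance of its start from the MALAT1 start in kb, 1 panel per comparison. Diamonds are MALAT1 and NEAT1 and grey points are other genes. In the upper panel the pair stands above FRMD8 and AP000769.1 (1.08 and 1.00 against 0.19 and 0.46). The few higher points of that panel are low in counts and lie 283.9 kb away or farther. In the middle panel AP000769.1 is among the points above the pair (0.71 against 0.67 and 0.60). In the lower panel FAM89B, 74.6 kb from the MALAT1 start, is among them (0.67 ± 0.76 against 0.39 and 0.36).

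Over the 9 libraries, the genes most like each member in log2 CPM were found among 10614 genes whose mean count reached 100. For MALAT1 they were RP11-299G20.2, an antisense RNA (Pearson r = 0.993), ZDHHC11, a palmitoyltransferase gene (0.982), FN3K, a kinase that removes sugar from proteins (0.978), ZNF117, a zinc finger gene (0.976), and TCTE1 (0.973). RP11-299G20.2 was at 6.67, 5.36 and 5.02 CPM in Control, 17.1, 23.1 and 14.5 with CBX1 and 12.9, 13.2 and 10.6 with CBX1_W42A, with CBX1 replicate 2 highest as for MALAT1. All 5 were called enriched with CBX1 against Control, where 7.06% of all genes were, with log2 fold changes from 1.00 to 2.05. They were picked by likeness to MALAT1 over these same libraries, so the calls follow in part from the choice.

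For NEAT1 the most alike were MZF1, a zinc finger gene (0.959), SLC27A3, of a fatty acid transport family (0.954), KCNAB2, a potassium channel subunit (0.948), POMT1, a protein mannosyltransferase (0.945), and LINC00894 (0.945). LINC00894 was at 34.0, 23.7 and 52.7 CPM in Control, 58.8, 54.4 and 88.3 with CBX1 and 47.5, 35.3 and 69.7 with CBX1_W42A, lowest in replicate 2 and highest in replicate 3 of each group as NEAT1 was. Of these 5, picked in the same way, 2 were called enriched with CBX1, KCNAB2 (0.79) and LINC00894 (0.89), beside 7.06% of all genes. Between MALAT1 and NEAT1 r was 0.76, and 482 genes were more like MALAT1 than NEAT1 was. These correlations, and the calls of genes picked by them, describe 9 libraries in 3 groups that share their depth and scaling, and carry no test.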

How the data were processed

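Chrom-seq RNA was measured in 9 HEK293T libraries, 3 each for Control, CBX1 and CBX1_W42A, grouped by their titles. According to the study's methods and the submitters' processing notes, the authors used fastp 0.23.1 for trimming, HISAT2 2.1.0 for alignment to the genome build hg19, and featureCounts 2.0.1 with the GENCODE 19 genes for counting. The deposited values were whole-number counts per gene without normalization, with 0 entries that name no gene and 0 columns not used. The listed gene length is the full span. RBM14 and RPP21 had 0 counts in every library, and whether reads shared with an overlapping gene were left uncounted was not checked. Strand and intron settings were not given in the sources used here.

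Taking the groups in pairs, genes with counts summing to more than 18 over 6 libraries were scaled by TMM and tested with edgeR (version 4.0.16) glmQLFit and glmQLFTest, with Benjamini-Hochberg adjustment over all genes tested. CPM used TMM factors over all 9 libraries (summed count above 27), and log2 CPM a prior count of 2. Shares and log2 ratios were tested by exact two-sided permutation over all regroupings of the 6 libraries of a comparison. Wilson intervals came from SciPy (version 1.17.1). Totals between 8379542 and 11082852 leave counting errors of 0.554 to 1.64% on the MALAT1 or NEAT1 count of a library at its group's mean count. No 2 replicates of a group were alike within sampling noise (chi-square per degree of freedom of 4.65 to 11.4). The test was checked on simulated counts with known changes. Sequences came from GRCh37, the build of hg19, and the short NEAT1 transcript from GENCODE 44 lifted to it.

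The members and gene lists were chosen with earlier results of these data known. Named genes were the members, overlapping genes, called or nearest protein-coding genes within 500 kb, the 5 most alike genes for each member, and the called and most extreme members of each list; other list members named here, among them those that passed by adjusted p alone, were chosen after their values were seen, and 2 genes that this rule names are not reported here. Alternatives were DESeq2 (version 1.42.0), other scalings and filters, 1 fit of all 9 libraries, the replicate number as a block, a log2 fold change of 1 and leaving out each library.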

Additional observations from a re-analysis of the deposited data

How the results depend on the processing

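For 21 results, 279 alternative values were computed. All 96 log2 fold changes of MALAT1 and NEAT1 kept their direction, although those at a minimum log2 fold change of 1 are the main estimates and could not change. MALAT1 in CBX1 against Control stayed enriched in all 16 alternatives (1.07 to 1.17, and 0.95 to 1.18 without 1 library). NEAT1 there (0.82 to 1.14 without 1 library) missed only a minimum log2 fold change of 1, at 0.9952. For CBX1_W42A against Control, MALAT1 reached 0.757 with upper-quartile factors (0.65 to 0.72 without 1 library). NEAT1 fell short with DESeq2 (0.6062) and with at least 10 counts in every library (0.6387, adjusted p = 0.0502, edgeR), and ranged from 0.4447 to 0.7711 without 1 library, with adjusted p from 0.0384 to 0.202. For CBX1 against CBX1_W42A, MALAT1 passed with DESeq2 (0.3939), library size alone (0.429), no filter (0.3851), all 9 libraries in 1 fit (0.4057) and the replicate block (0.3771), and NEAT1 with no filter (0.3609) and the replicate block (0.3742). The cause was not tested.

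Deviations of same-numbered libraries correlated at -0.186, -0.215 and 0.043 for CBX1 and Control, at -0.11, 0.143 and 0.132 for CBX1_W42A and Control, and at 0.168, 0.082 and 0.119 for the readers. Not all were above 0.1 in any comparison, so the numbers were not taken as pairs; between the readers every library but CBX1 replicate 2 (0.086 with CBX1_W42A replicate 3) correlated best with its own number. The replicate block gave an adjusted p of 0.00721 for MALAT1 and 0.00937 for NEAT1 between the readers (edgeR), changed no other call of the pair, and gave 250 genes higher and 66 lower between the readers.

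Reversed signs were confined to ratio differences without 1 library: -0.1835 and -0.07625 (CBX1 against Control), -0.1453 and -0.07886 (CBX1_W42A against Control), and -0.2482, -0.02904 and -0.1757 (between readers), ranging up to 0.2961, 0.2429 and 0.2314.

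Counts of called genes moved more. For CBX1 against Control, 1330 higher and 64 lower became 838 and 39 with at least 10 counts in every library; lower calls were 33 with upper-quartile factors, 31 with library size alone, 24 at a log2 fold change of 1, and 42 to 74 without 1 library. For CBX1_W42A against Control, 182 higher became 338 without filter, 282 with all 9 libraries and 32 to 103 without 1 library, and 4 lower became 0 (upper-quartile factors, or a log2 fold change of 1), 1 (library size alone, or at least 10 counts), 9 without filter and 0 to 8 without 1 library. Between the readers, 154 higher and 39 lower became 244 and 70 without filter, 102 and 23 at a log2 fold change of 1, and 68 to 184 and 17 to 46 without 1 library.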
